A study of Macaca mulatta with 4 samples.

Results

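Tubulins are the protein subunits of microtubules, the hollow filaments that carry transport along axons and dendrites and give a growing neurite its stiffness. The members described here are the alpha and beta tubulin genes of developing and mature neurons: TUBA1A, TUBA1B, TUBA4A, TUBB, TUBB2A, TUBB2B, TUBB3, TUBB4A and TUBB4B. They were chosen by gene symbol. Of these 9 symbols, 6 had a gene ID in the deposited table of 35395 Ensembl macaque gene IDs, namely TUBA1A and TUBA4A among the alpha tubulins and TUBB, TUBB2B, TUBB3 and TUBB4A among the beta tubulins. No ID could be matched to TUBA1B, TUBB2A or TUBB4B, and these were not analysed here. All 6 matched genes passed the filter on low counts, with at least 5314 reads in every library.

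RNA came from the amygdala, the almond-shaped nuclei deep in the temporal lobe, of infant wild type rhesus macaques (Macaca mulatta). The 4 libraries were a female (C-f) and a male (C-m) labelled control, and a female (S-f) and a male (S-m) given sevoflurane, an inhaled general anaesthetic. Per the labels' protocols, the anaesthetised animals breathed about 2.5 to 3% sevoflurane for 4 hours near postnatal days 7, 21 and 35, and the tissue was collected directly after the third exposure. The labels do not say what the controls breathed or how they were handled, so sevoflurane and any difference in handling cannot be told apart. Nothing beyond the sex label says that the 2 libraries of a condition come from separate animals, so p-values measure only the spread between these libraries, sex included.

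An alpha and a beta tubulin pair into the dimer from which every microtubule is built. Mammals have several genes for each, and the proteins differ mainly in their acidic tails, where enzymes add and remove glutamate, tyrosine and other groups. TUBA1A is the main alpha tubulin of neurons that have left the cell cycle, and TUBA4A is an alpha tubulin of the mature brain whose gene does not encode the final tyrosine. TUBB is widely expressed, TUBB2B is needed for neuronal migration, TUBB3 is largely confined to neurons, and TUBB4A is made by oligodendrocytes and neurons. Cells also hold tubulin messenger RNA in balance with free tubulin dimer, by a pathway in which the protein TTC5 recognises tubulin as it leaves the ribosome and the messenger RNA is then degraded.

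Every matched tubulin had a lower level in both sevoflurane libraries than in both control libraries, as did 37.3% of all tested genes. TUBA1A, TUBA4A, TUBB, TUBB3 and TUBB4A fell, by 2.12-fold to 2.96-fold, and TUBB2B did not pass the test. Levels are counts per 1000000 reads (CPM) with TMM scaling, a correction for differences in library composition. Changes are log2 fold changes of sevoflurane over control with their standard error (SE), and a call needed an adjusted p under 0.05 (Benjamini-Hochberg over all 15417 tested genes) in edgeR's quasi-likelihood test. By this rule 5 of 6 members were called lower and 0 higher, where 19.4% of all tested genes were called lower, 21.3% higher and 40.7% either way. The median log2 fold change of the 6 was −1.45, beside 0.0040 for all tested genes. Of the 200 tested genes with the highest mean CPM, 72 were called lower and 14 higher, with a median of −0.39. All genes called lower had a median of −1.71. A log2 fold change below that of TUBA1A was seen in 14.4% of tested genes, and below that of TUBB2B in 28.8%. In these bulk samples, fewer cells that express a tubulin and less of its RNA per cell cannot be told apart. Lists of short and long messenger RNAs, described below, had medians of −1.34 and 3.02 between the same conditions. Both lists were chosen with earlier results of these data known. Any part of RNA quality or library preparation in these differences was not tested.

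The fall also appears in the plain reads. The 6 genes together took 1.14% of all reads in C-f and 1.25% in C-m, against 0.559% in S-f and 0.516% in S-m. Library totals ranged from 12477047 to 16293371 reads. Tubulin genes are near-identical over long stretches of their coding sequence, and the sources used here do not state how reads that fit several of them were counted. A read of one isotype may therefore have been counted for another or dropped, and every single-isotype value below carries that uncertainty. The names overlap too: RefSeq (assembly T2T-MMU8v2.0) lists TUBA1C as a synonym of TUBA1B, and TUBB2A and TUBB2B as synonyms of TUBB.

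Among the alpha tubulins, TUBA1A (ENSMMUG00000021081), whose mutation in people causes malformations of the cerebral cortex, stood at 5662 CPM in C-f and 6978 in C-m, and at 1916 in S-f and 2351 in S-m. The lower control value was well above the higher sevoflurane value. The log2 fold change was −1.57 ± 0.31 SE (edgeR adjusted p = 0.0104), from 6320 ± 930 to 2133 ± 308 CPM (SD, n = 2). Ordered by reads, TUBA1A was the gene of rank 1 in C-f and rank 2 in C-m, against rank 11 and rank 9 in S-f and S-m.

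TUBA4A (ENSMMUG00000019628), whose variants have been linked to motor neuron disease, was at 957 CPM in C-f, 1143 in C-m, 380 in S-f and 396 in S-m. The sevoflurane libraries lay close together and below both controls. TUBA4A changed by −1.44 ± 0.26 (edgeR adjusted p = 0.00801). Its rank by reads was 116 and 89 in C-f and C-m, and 330 and 323 in S-f and S-m.

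TUBB (ENSMMUG00000030028), the beta tubulin present in most dividing and resting cells, had 1845 CPM in C-f, 1934 in C-m, 911 in S-f and 869 in S-m. Both conditions had a narrow spread. The change was −1.09 ± 0.26 (edgeR adjusted p = 0.0198), and the call was lost without C-m (adjusted p = 0.0582) and without S-m (adjusted p = 0.0686), while the log2 fold change stayed between −1.11 and −1.05 without any 1 library.

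TUBB3 (ENSMMUG00000029059), widely used as a marker of neurons and needed for axon guidance, was at 830 CPM in C-f, 1169 in C-m, 362 in S-f and 365 in S-m. The controls differed from each other by 1.41-fold, and the sevoflurane libraries were almost level. TUBB3 changed by −1.46 ± 0.29 (edgeR adjusted p = 0.0101). Its rank by reads went from 137 in C-f and 86 in C-m to 350 and 379 in S-f and S-m.

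TUBB4A (ENSMMUG00000014216), mutated in a childhood disease of myelin and basal ganglia, gave the reverse arrangement of spread. It was at 1572 CPM in C-f and 1550 in C-m, and at 691 in S-f and 381 in S-m. The controls were level, and S-m was the lowest. TUBB4A changed by −1.54 ± 0.36 (edgeR adjusted p = 0.0167), and the call was lost without S-m (−1.17, adjusted p = 0.0514).

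TUBB2B (ENSMMUG00000023785), mutated in a disorder of cortical folding, was at 1267 CPM in C-f, 1073 in C-m, 830 in S-f and 455 in S-m. The groups did not overlap, a pattern with sevoflurane lower that held for all 6 members and for 37.3% of all tested genes. The difference was −0.86 ± 0.36 (edgeR adjusted p = 0.0957), which is not a call. It became one without S-f (−1.35, adjusted p = 0.0305). Whether TUBB2B changed less than the other tubulins was not tested across genes.

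**Figure D1:**
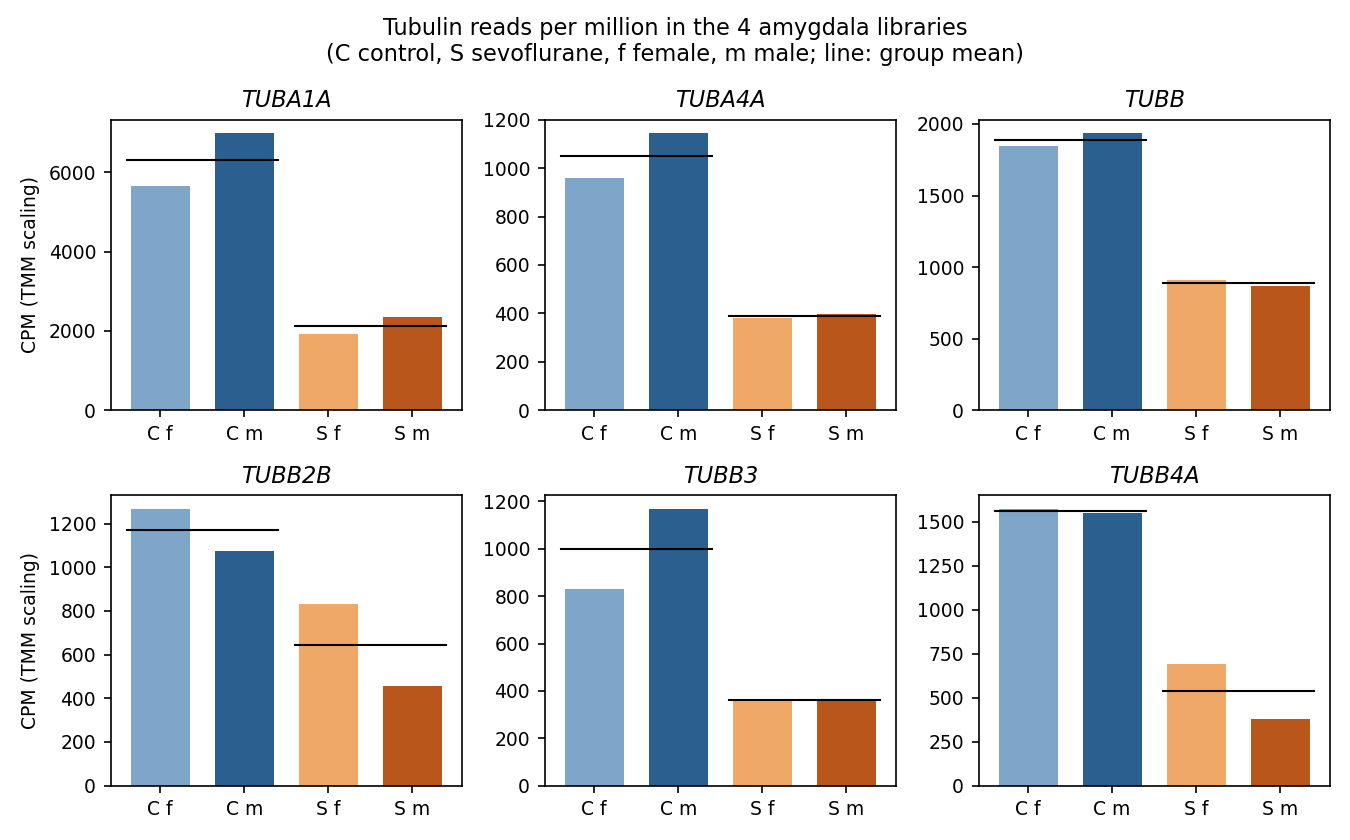
Level of each matched tubulin in CPM (vertical axis, TMM scaling, starting at 0) in the 4 libraries (C control, S sevoflurane, f female, m male), 1 bar per library, with a line at the mean of each condition. In all 6 panels both sevoflurane bars are below both control bars, and the S-m bar is the lowest for TUBB2B (455) and TUBB4A (381).

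The sexes were next compared within each condition. All 6 members were lower with sevoflurane in females and in males, as were 42.6% of all tested genes. TUBA1A was 2.96-fold lower in females and 2.97-fold lower in males. TUBA4A was 2.52-fold and 2.89-fold lower, and TUBB 2.03-fold and 2.23-fold lower, in females and males. The sexes were further apart for TUBB3, at 2.29-fold lower in females and 3.21-fold in males, for TUBB2B at 1.53-fold and 2.36-fold, and for TUBB4A at 2.28-fold and 4.07-fold. With 1 library per sex and condition, the difference between these folds was not tested.

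Between males and females over both conditions, 0 of 6 members were called (edgeR's quasi-likelihood test with condition and sex as terms, adjusted p from 0.592 to 1), and 0 of 6 had an unadjusted p under 0.05. DESeq2 called 0 as well. Of all tested genes, 1.84% were called between the sexes. TUBB2B had the largest estimate, −0.55 ± 0.31 (male over female, edgeR adjusted p = 0.592), and TUBB4A was at −0.44 ± 0.32 (edgeR adjusted p = 0.746). In the sevoflurane condition the male over female ratio was 0.548 for TUBB2B and 0.551 for TUBB4A, against 0.847 and 0.986 in the controls.

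**Figure D2:**
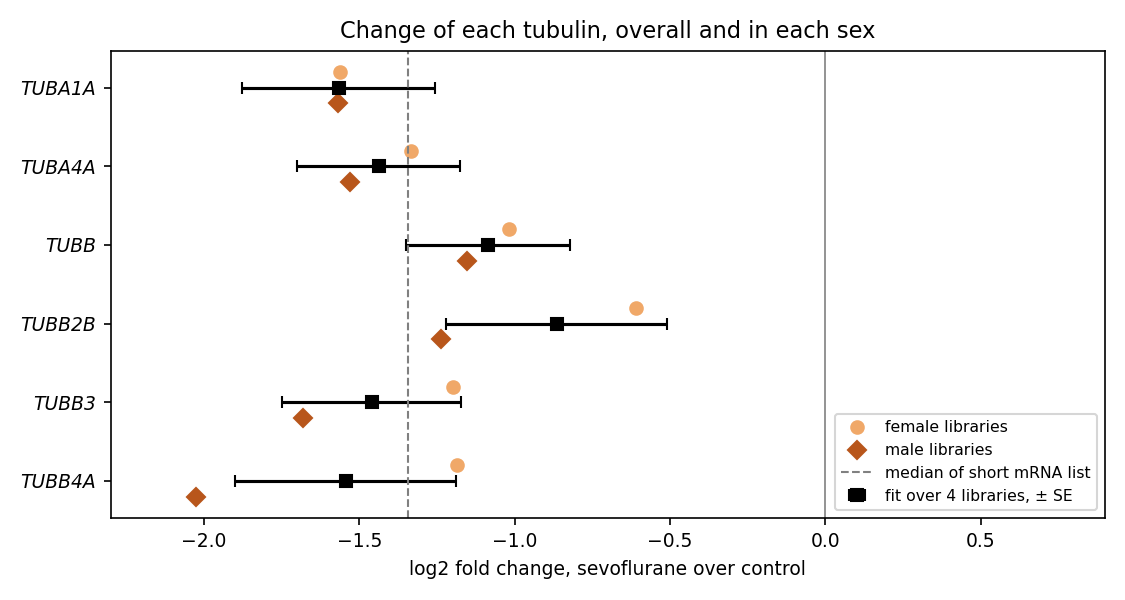
Log2 fold change of sevoflurane over control (horizontal axis) for each matched tubulin, as fitted over the 4 libraries with its standard error (squares and bars) and as measured in the female libraries (circles) and the male libraries (diamonds); the dashed line is the median of the short messenger RNA list (−1.34). Every point lies below 0, and the sexes are furthest apart for TUBB4A. The short messenger RNA list was chosen with earlier results of these data known.

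Shares within a library do not depend on how libraries are scaled to each other. Of the reads on the 2 matched alpha tubulins, TUBA1A took 85.5% in C-f (exact Clopper-Pearson 95% interval 85.3 to 85.8), 85.9% in C-m (85.7 to 86.1), 83.5% in S-f (83.1 to 83.8) and 85.6% in S-m (85.3 to 85.9). These intervals cover counting error only. S-f was the lowest, and S-m lay between the controls. The mean share went from 85.7% ± 0.271 to 84.5% ± 1.51 (SD, n = 2, exact two-sided permutation test p = 0.667). With 2 libraries against 2 the smallest p this test can give is 0.333. With every alpha tubulin that has an ID in the sum (TUBA1C, TUBA8, TUBA3E and TUBAL3 added), TUBA1A took 84.8% in C-f, 85.0% in C-m, 79.8% in S-f and 84.1% in S-m. Both sevoflurane shares were then below both controls, and the mean changed by −2.95 percentage points in place of −1.20 (exact permutation p = 0.333, n = 2 per condition). Of the added genes, TUBA1C had 1466 reads in S-f, against 353 in C-f, 414 in C-m and 571 in S-m.

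The beta tubulins shared their reads less evenly between libraries. TUBB4A took 28.5% of the beta reads in C-f, 27.1% in C-m, 24.7% in S-f and 18.4% in S-m. Both sevoflurane shares were below both control shares, and the means were 27.8% ± 1.02 and 21.6% ± 4.47 (SD, n = 2, exact permutation p = 0.333, the smallest possible). TUBB2B took 23.0%, 18.7%, 29.7% and 22.0% in the same order of libraries. Its highest share was in S-f, and the conditions overlapped. TUBB3 took 15.0%, 20.4%, 12.9% and 17.6%. Here the male library was higher than the female in both conditions, and the conditions overlapped. TUBB took 33.5%, 33.8%, 32.6% and 42.0%, with S-m apart from the other 3. For TUBB, TUBB2B and TUBB3 the exact permutation p was 1, 0.667 and 0.667 (n = 2 per condition).

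Reads on the 2 alpha members per read on the 4 beta members came to 1.20 in C-f, 1.42 in C-m, 0.822 in S-f and 1.33 in S-m. S-f was the only one with fewer alpha than beta reads. Since TUBA1B, TUBB2A and TUBB4B are not in these sums, the ratio describes the matched genes and not the tubulin pool.

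**Figure D3:**
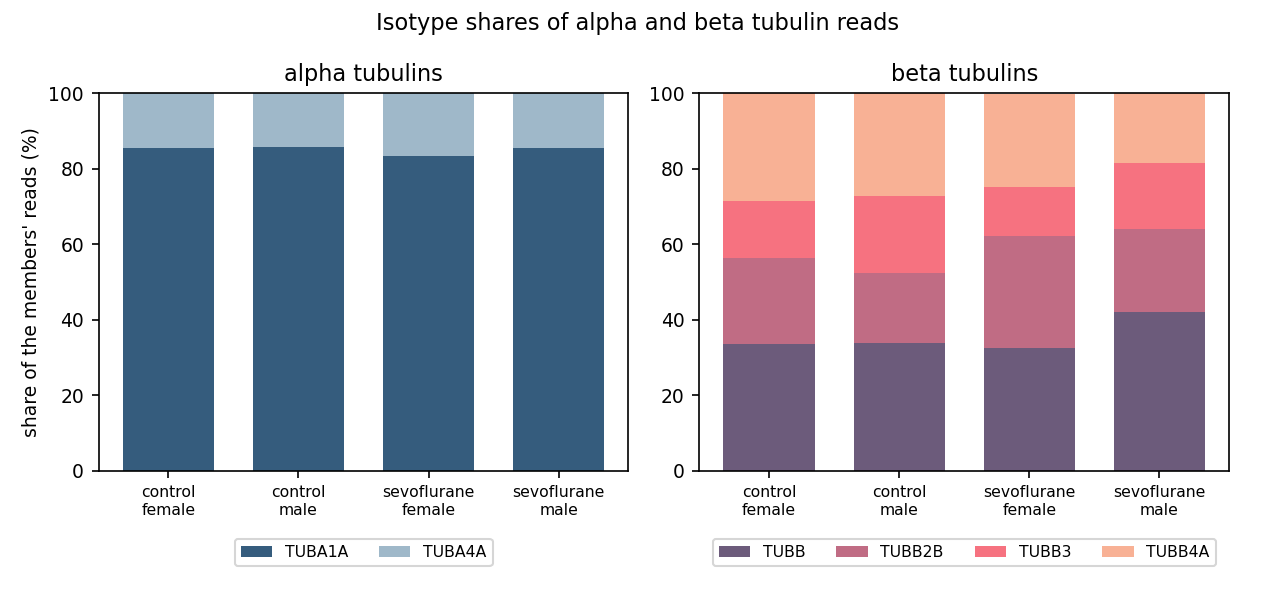
Share of reads in percent (vertical axis) taken by each isotype among the 2 matched alpha tubulins (left) and the 4 matched beta tubulins (right), 1 stacked bar per library. TUBA1A holds 83.5% to 85.9% of the alpha reads in all 4 libraries, while the share of TUBB4A goes from 28.5% and 27.1% in the controls to 24.7% and 18.4% with sevoflurane.

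The members were also compared by the distance between their log2 CPM profiles over the 4 libraries, each centred on its own mean. The profiles were not scaled, so a distance takes in the size of a change as well as its shape. Whether the profiles differ beyond the spread between libraries was not tested. Among the 15 pairs, TUBA4A and TUBB3 were closest (0.17 log2 units) and TUBA1A and TUBB2B furthest apart (1.11). The same measure was used to find other genes of like profile among 4560 genes with a mean of at least 50 CPM. Nearest to TUBA1A were RPL5, a protein of the large ribosomal subunit (0.041), MRPS17, of the mitochondrial ribosome (0.058), and TOMM22, of the import pore of the outer mitochondrial membrane (0.062). RPL5 stood at 692 CPM in C-f, 870 in C-m, 242 in S-f and 287 in S-m. Nearest to TUBB3 were SNF8, a subunit of an endosomal sorting complex (0.10), OS9, a lectin of the endoplasmic reticulum (0.11), and RPS14, of the small ribosomal subunit (0.12). The median distance over all these genes was 1.55 from TUBA1A and 1.46 from TUBB3.

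Lists of other genes follow, and of all tested genes 21.3% were called higher and 19.4% lower. The further alpha, beta, delta and epsilon tubulins that could be tested did not share a direction. Of 11 such genes listed, 8 had an ID, 3 of these (TUBA3E, TUBAL3 and TUBB1) had 0 reads in all libraries, and 5 were tested, with 0 called higher, 1 lower and a median of −0.0032 (0.23 with library totals). TUBA8 fell by 1.93 ± 0.34 (log2), from 36.0 and 51.2 CPM in C-f and C-m to 12.7 and 10.2 in S-f and S-m. TUBB6, a further beta tubulin named after its values were seen, was at 11.4, 6.56, 4.17 and 2.61 CPM in C-f, C-m, S-f and S-m. Its difference of −1.40 ± 0.55 was not called (edgeR adjusted p = 0.082). Neither TUBD1 (−0.0032) nor TUBE1 (0.77) was called. TUBA1C, named after its values were seen, was at 23.0, 36.7, 92.7 and 39.2 CPM in the same order, a difference of 1.14 ± 0.47 (edgeR adjusted p = 0.0958). It was high in S-f alone, and without S-m the list had 1 gene called higher. Without C-m 2 were called lower.

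Gamma tubulin does not enter the microtubule wall but, in a ring complex with the TUBGCP proteins, starts new microtubules. Of 9 tested genes of the ring, 2 were called higher and 3 lower, with a median of 0.42. TUBG1, a gamma tubulin gene, fell from 258 and 293 CPM in the controls to 126 and 110 with sevoflurane (female and male). The change was −1.22 ± 0.25 (edgeR adjusted p = 0.0113), and −1.12 without S-m, where the call was lost. MZT2B, a small protein of the ring, changed by −3.71 ± 0.45 (−4.36 without S-f) and the ring subunit TUBGCP2 by −1.35 ± 0.26. TUBGCP5 rose by 1.46 ± 0.42, a call lost without C-m (adjusted p = 0.107) or S-m (adjusted p = 0.175, edgeR). Without C-m 1 member was called higher, and without S-m 0 were called higher and 2 lower.

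New alpha and beta chains are handed by prefoldin to the chaperonin CCT and are then joined by the cofactors TBCA to TBCE with the GTPase ARL2. Of 14 tested cofactor and prefoldin genes, 9 were called lower and 1 higher, with a median of −1.04. ARL2 fell from 230 and 332 CPM in C-f and C-m to 50.1 and 49.4 in S-f and S-m (−2.50 ± 0.29, edgeR adjusted p = 0.00255). TBCB, which binds alpha tubulin, changed by −1.83 ± 0.26. TBCA, which binds beta tubulin and has a second ID that could share its reads, changed by −1.31 ± 0.35 and was not called without S-m (adjusted p = 0.0856). TBCEL, a relative of TBCE that promotes tubulin breakdown, rose by 1.94 ± 0.36. The count of genes called lower was 6 with library totals, 6 without either control library and 4 without S-m, while the median stayed between −1.06 and −0.80.

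Few of the chaperonin genes were called. Of 8 CCT subunits tested, 1 was called lower and 0 higher, with a median of −0.10 (0.13 with library totals). The gene called was CCT3 (−0.88 ± 0.24, edgeR adjusted p = 0.0301), and its call was lost without any 1 of the 4 libraries (adjusted p 0.0786 to 0.159).

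For the autoregulation pathway, TTC5, which binds nascent tubulin, stood at 25.5 CPM in C-f, 20.9 in C-m, 26.8 in S-f and 26.3 in S-m. Its difference of 0.19 ± 0.30 was not called (edgeR adjusted p = 0.633). CNOT11, of the deadenylase that acts on the tubulin messenger RNA, was not called either. SCAPER, which links TTC5 to that deadenylase, rose by 1.11 ± 0.28 (edgeR adjusted p = 0.0220). Its call was lost without C-f (adjusted p = 0.0818), C-m (0.0913) or S-m (0.0868).

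Of 19 tested enzymes that modify tubulin tails or the lumen of the microtubule, 2 were called higher, 3 lower and 14 neither way, with a median of −0.46. TTLL7, which adds glutamates to beta tubulin tails, rose from 3.78 and 3.64 CPM in the controls to 84.5 and 76.7 with sevoflurane (female and male), which is 4.44 ± 0.31 on the log2 scale (edgeR adjusted p = 0.00141). AGTPBP1, which removes such glutamates, rose by 1.52 ± 0.27. SVBP, the partner of the enzymes that remove the last tyrosine of alpha tubulin, changed by −1.60 ± 0.31, and ATAT1, which acetylates alpha tubulin, by −1.24 ± 0.25. Genes called lower numbered 2 without C-m or either sevoflurane library and with library totals, and those called higher numbered 3 without C-m and with library totals.

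Most genes for proteins that bind the microtubule wall were called higher. Of 14 tested, 9 were called higher and 2 lower, with a median of 2.07. Among all tested genes, 21.3% were called higher and 19.4% lower. The long messenger RNA list, given further below, had 22 of 25 genes called higher and a median of 3.02. MAP2, which lines dendritic microtubules, rose from 14.5 CPM in C-f and 7.81 in C-m to 991 in S-f and 1549 in S-m (6.82 ± 0.50, edgeR adjusted p = 0.00141). MAP1B, a protein of growing axons, rose by 3.76 ± 0.29. DCX, of migrating neurons, had 4 and 1 reads in C-f and C-m and 126 and 143 in S-f and S-m (5.54 ± 0.74, and 6.53 without C-f). MAP1S changed by −1.98 ± 0.36. MAP6, which stabilises microtubules against cold, changed by −0.96 ± 0.25 and was called neither without a control library (adjusted p = 0.0707 and 0.116) nor without S-m (adjusted p = 0.102, edgeR). Genes called lower numbered 1 without either control library, without S-m and with library totals.

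Among severing enzymes, 4 of 8 were called higher and 0 lower, with a median of 1.67. Without S-m 2 were called higher, and 1 was called lower without C-m or S-f. That median was 2.29 without C-m. SPAST, or spastin, changed by 3.92 ± 0.49 (4.57 without C-m), and the katanin relative KATNAL1 by 3.53 ± 0.49 (4.26 without C-f).

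Of 15 proteins that bind microtubule ends or destabilise microtubules, 4 were called higher and 3 lower, with a median of −0.08 (0.15 with library totals). The shares over all tested genes were 21.3% higher and 19.4% lower. CAMSAP2 and CAMSAP1, which cap the minus ends of free microtubules, rose by 4.96 ± 0.31 and 3.95 ± 0.43 (4.63 for CAMSAP1 without C-f). The stathmin STMN4, which sequesters tubulin dimers, changed by −1.45 ± 0.32, and the plus-end protein MAPRE3 by −1.16 ± 0.24. Both calls were lost without S-m (edgeR adjusted p = 0.0597 and 0.0546), where 0 genes of the list were called lower. STMN2, a stathmin of neurons, was at 1968, 1858, 1616 and 1994 CPM in C-f, C-m, S-f and S-m, and its difference of −0.08 ± 0.28 was not called (0.15 with library totals). Genes called higher numbered 6 with library totals, and those called lower 2 without C-m.

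**Figure D4:**
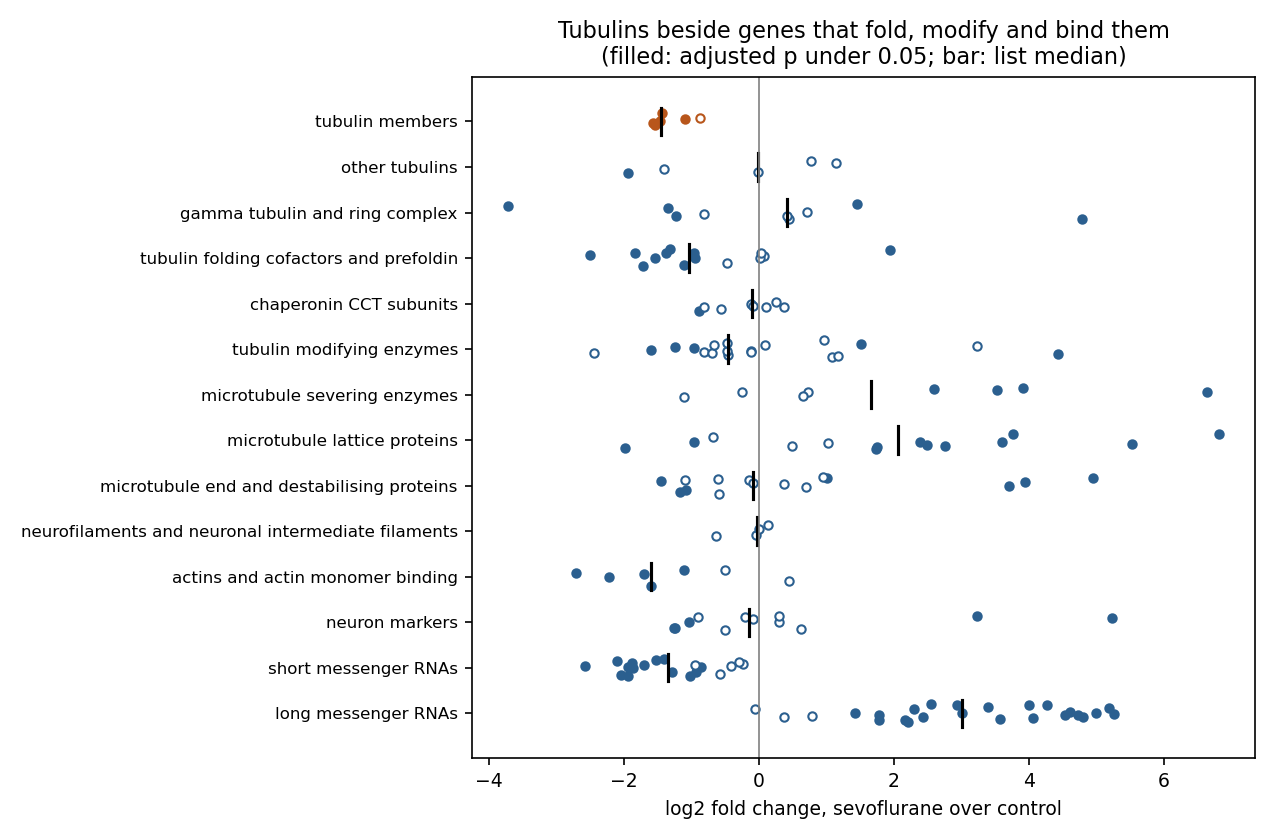
Log2 fold change of sevoflurane over control (horizontal axis) for the 6 matched tubulins and for 13 lists of other genes, 1 circle per tested gene, filled where the edgeR adjusted p was under 0.05, with a bar at each list's median. The tubulins lie between −1.57 and −0.86, and the actin and short messenger RNA lists have medians of −1.59 and −1.34. Microtubule lattice proteins and long messenger RNAs lie mostly above 0.

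Other parts of the neuronal cytoskeleton were set beside the tubulins. Of 4 tested neuronal intermediate filament genes, 0 were called in either direction by edgeR (median −0.02, and 0.22 with library totals), with 0 at an unadjusted p under 0.05, and DESeq2 called 0 as well. The neurofilament gene NEFL was at 526, 730.5, 758 and 619 CPM in C-f, C-m, S-f and S-m (0.13 ± 0.29, of opposite sign without C-f or S-f). Of 7 actins and actin monomer binding proteins, 5 were called lower and 0 higher, with a median of −1.59. TMSB10 and PFN1, which bind actin monomers, changed by −2.70 ± 0.38 and −2.22 ± 0.33. ACTB, the beta actin gene, was at 170, 196, 163 and 97.7 CPM in the same order. Its difference of −0.49 ± 0.32 was not called (edgeR adjusted p = 0.249). ACTG1, the other actin gene of the list and named after its values were seen, was at 2624, 2662, 1275 and 1173 CPM in that order. It was called lower (−1.11 ± 0.27, edgeR adjusted p = 0.0201).

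Markers of cell types and classes of transcript also differed between these libraries, and their part in the tubulin values was not tested. Of 12 neuron markers, all with reads in every library, 2 were called higher and 3 lower, with a median of −0.14 (0.09 with library totals). Their summed level was 11290 and 11199 CPM in the controls (female, male) and 8794 and 9702 in the sevoflurane libraries. The axonal genes GAP43 and THY1 changed by −1.25 ± 0.34 and −1.24 ± 0.27. The call of GAP43 was lost without C-m or S-f (edgeR adjusted p = 0.113 and 0.100), and that of THY1 without S-m (0.0553). SYT1, a calcium sensor of synaptic vesicles, and the RNA-binding ELAVL4 rose by 5.24 ± 0.77 and 3.23 ± 0.60. They were at 6.83 and 4.48 without C-f and 4.48 and 2.56 without C-m. Neuron markers called lower numbered 2 without any 1 library and 1 with library totals. Of 8 markers of immature neurons, 3 were called higher, the growth cone gene DPYSL3 (3.26 ± 0.26) among them, and 0 lower, with a median of 1.22. The 8 summed to 2430 and 1607 CPM in the controls and 1609 and 1666 with sevoflurane. Most of each sum was STMN1, which was not called, at 2230, 1466, 1174 and 1257 CPM in C-f, C-m, S-f and S-m.

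Markers of 7 oligodendrocyte genes summed to 1543 CPM in C-f, 6659 in C-m, 3068 in S-f and 4017 in S-m. Of the 7, 0 were called by edgeR or DESeq2, with 0 at an unadjusted p under 0.05, while 2 were called lower without C-f and 2 higher without C-m. TUBB4A, which oligodendrocytes also make, was at 1572 CPM in C-f, 1550 in C-m, 691 in S-f and 381 in S-m. Its relation to the oligodendrocyte markers was not tested. Microglial markers, 6 of 8 called lower, summed to 478 and 439 CPM in the controls and 179 and 240 with sevoflurane. Astrocyte markers, with 1 called higher and 3 lower of 8 (3 and 2 with library totals, and 2 higher without C-f or S-f), summed to 4407, 4117, 3077 and 3827 CPM, and endothelial and mural markers, with 3 higher and 2 lower of 8, to 324, 307, 244 and 203 CPM, both in the order C-f, C-m, S-f, S-m. Choroid plexus markers summed to 18185 CPM in C-m and to 8.37 to 48.4 CPM in the other 3. Of this list 2 of 5 tested genes were called lower, 6 of 7 without C-f and 1 of 7 without either sevoflurane library. Without C-m the log2 fold changes were −1.44 for TUBA1A, −1.33 for TUBA4A, −1.08 for TUBB, −1.02 for TUBB2B, −1.22 for TUBB3 and −1.59 for TUBB4A.

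A list of 20 tested short messenger RNAs, those of the proteasome core and of the Sm spliceosome ring, had 15 genes called lower and 0 higher, with a median of −1.34. A list of 25 long messenger RNAs, NF1 and ANK2 among them, had 22 called higher and 0 lower, with a median of 3.02. Of the short list 10 were called lower without C-m or S-f. Both lists were chosen with earlier results of these data known, and transcript lengths were not measured. The tubulin median was −1.45, beside −1.59 for the actin list and −1.53 for the microglial markers. Any part of transcript length in the tubulin values was not tested.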

How the data were processed

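RNA sequencing of 4 amygdala libraries gave a table of raw read counts per Ensembl gene ID, deposited by the authors without normalization. Reads were aligned with HISAT2, per the submitters' processing notes. Not given in the sources used here are its version, the counting program, the handling of multiply aligned and stranded reads, the genome build and the annotation, so no coordinates, lengths or sequences are printed. Symbols came from a table naming 24173 of 35395 IDs. Of 230 listed symbols 13 had none, TTL among them. Where a symbol had several IDs, that with most reads carried it.

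Groups came from the treatment label. After filterByExpr (minimum count 10) 15417 genes were scaled by TMM and tested with edgeR 4.0.16 (R 4.3.3), with condition as the only term (2 residual degrees of freedom), or condition and sex (1). SEs derive from the F statistic, and profiles used log2 CPM with a prior count of 2. Alternatives used DESeq2 1.42.0, limma 3.58.1, other scalings and filters, sex as a block, and each library left out. Members and 20 context lists were chosen with earlier results of these data known. Named were all members, 10 set partner genes, the 2 called genes of largest change per direction (at least 10 CPM) of each microtubule, cytoskeleton and neuron list, and the 3 nearest profiles to TUBA1A and TUBB3. Other lists are given by counts and sums.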

Additional observations from a re-analysis of the deposited data

How the results depend on the processing

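All 6 tubulins were lower with sevoflurane in each of the 11 alternative fits, and 60 of these 66 values kept their side of the threshold. TUBB was not called without C-m or S-m, nor TUBB4A without S-m. TUBB2B was called with no filter beyond 1 read (−0.85, edgeR adjusted p = 0.0279), with sex added as a block (−0.92, adjusted p = 0.0218) and without S-f. Leaving out 1 library moved the log2 fold change of TUBA1A between −1.72 and −1.42, TUBA4A between −1.54 and −1.33, TUBB between −1.11 and −1.05, TUBB2B between −1.35 and −0.49, TUBB3 between −1.66 and −1.22, and TUBB4A between −2.03 and −1.17. The number of members called lower ranged from 3 (without S-m) to 6. With sex as a block 6 members and 7825 genes in all were called, against 5 and 6278. The labels give no replicate numbers, and the male minus female differences of the 2 conditions correlated at 0.326 across genes. Without 1 library 3469 to 5800 genes were called, 1967 to 3029 higher and 1502 to 2771 lower. Scaled by totals only, 3906 genes were called higher and 2269 lower, against 3282 and 2996. Between the sexes 283 genes were called, 449 with library totals and 0 with sex as the only term (edgeR, 168 genes at an unadjusted p under 0.05). With every alpha tubulin in the file in the sum, the share of TUBA1A changed by −2.95 percentage points in place of −1.20. Weighting shares by transcript length was not run. The same fits were read for 57 other genes, picked by the naming rule with all context lists included, and not all named above. Of their 627 values, 600 kept their direction and side, 23 were no longer called, and 4 had the opposite sign. These 4 were STMN2 with library totals (0.15) and without S-f (0.069), and NEFL without C-f (−0.063) and S-f (−0.010). Without 1 library STMN2 ranged from −0.24 to 0.069 and NEFL from −0.063 to 0.36. With 2 libraries per condition, no permutation test of a single value could reach the threshold.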
